A study of Mus musculus with 86 samples.

Results

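The CD45-positive areas of the deep dermis were compared at 24 h and 0 h after UVB exposure of mouse back skin. They were taken as the segments that the labels place in the CD45 deep dermis compartment, which gave 6 segments at each of the 2 times, 12 of the 85 tissue segments of the series (86 samples with a no template control). GeoMx digital spatial profiling was used, in which probes bound to RNA in a tissue section carry barcodes that light releases from a chosen area, the segment, for counting by sequencing. All groups came from female wild type C57BL/6 mice of 12 to 16 weeks whose shaved back skin received UVB of 290 to 320 nm once, at 500 mJ/cm2, under isoflurane. Biopsies carry the numbers of the same 3 mice (208, 210 and 219) at 0, 6 and 24 h. The labels do not say whether the same animals were sampled repeatedly. The labels name no unexposed skin at 6 or 24 h, so UVB cannot be told apart from shaving, anaesthesia, biopsy or time of day. CD45 is the common surface antigen of leukocytes, and PanCK stains the keratins of epithelial cells. PanCK and CD45 areas of the deep dermis were cut from the same regions of interest.

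UVB is absorbed mostly in the epidermis, where it damages DNA and starts the inflammation known as sunburn. Signals released there reach the vessels of the dermis, and leukocytes enter the tissue over the following hours. The deep dermis also holds fibroblasts and hair follicles and lies on the adipose layer, so an area chosen by CD45 staining can include RNA of neighbouring cells. In such areas a change in the number of cells of a type and a change in RNA per cell cannot be told apart. The probe identifiers are not paired with genes in the sources used here. Probes are therefore named by identifier, and neither the leukocyte label nor any other cell type could be checked against marker genes.

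Segments of a mouse at 1 time were added into 1 sum, so that the mouse was the replicate. The sums held 35199 to 80779 counts at 0 h and 40903 to 129075 at 24 h. The 6 h sums, which also entered the fit, held 17076 to 137782 counts. Mouse 210 gave 38.2% of all counts at 0 h and 56.5% at 24 h. At these depths 624 of 20175 listed probes had enough counts for a test. The mean level of a floor probe, 1 of the 5000 scarcest at 0 h in the other 4 compartments, was 28.2 at 0 h and 28.1 at 24 h in CPM, the count scaled to a common library total. Whether floor probes include negative controls of the panel is not known, so the floor is a low reference level and not a measured background.

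At 24 h 17 probes were higher and 42 were lower than at 0 h in CD45 deep dermis (edgeR's quasi-likelihood F test with the mouse as a block, Benjamini-Hochberg adjusted p under 0.05). These 59 probes were 9.46% of those tested, 2.72% for rises and 6.73% for falls. The rises had a median log2 fold change of 2.32 (1.20 to 5.33), and 9 of the 17 were at least 4-fold. The falls had a median of -2.02 (-3.49 to -1.24), and 21 of the 42 were at least 4-fold. The median over all tested probes was 0.09. Together the 17 rises took 0.142% to 0.192% of the counts of a mouse at 0 h and 0.78% to 0.99% at 24 h. The 42 falls took 2.54% to 3.90% at 0 h and 0.820% to 0.961% at 24 h. These ranges describe probes that the same comparison selected.

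**Figure D1:**
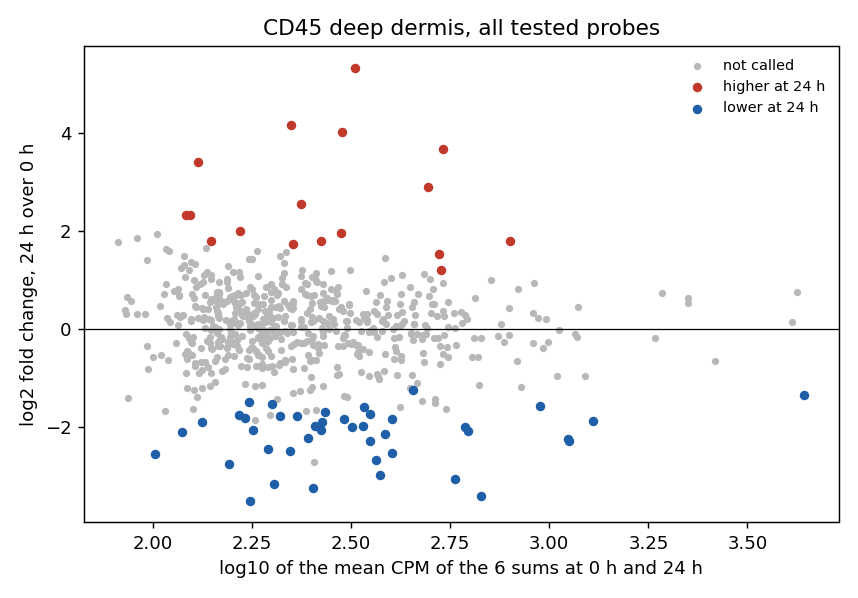
Log2 fold change of each of the 624 tested probes in CD45 deep dermis, 24 h over 0 h (vertical), against the log10 of its mean CPM over the 6 sums (horizontal). The 17 rises (red) reach 5.33, and the 42 falls (blue) reach -3.49.

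The levels of the called probes at each time follow in part from the filter and the call, which admit a rise through its 24 h level and a fall through its 0 h level. The rises had a median mean level of 58.5 CPM at 0 h and 433 CPM at 24 h, and 12 of the 17 had 20 counts or fewer over the 3 mice at 0 h. For 8 of them the 0 h level was under 2 times that of a floor probe. The falls had a median of 455 CPM at 0 h and 112 CPM at 24 h, and 6 of the 42 ended under 2 times the floor level. All 17 rises and 39 of 42 falls moved in the called direction in 3 of 3 mice. The CPM of the 3 mice did not overlap between the times for 50 of the 59, against 24.2% of all tested probes, and this too describes probes that the comparison selected. At 6 h the level lay between those of 0 h and 24 h for 15 rises and 33 falls. It lay beyond the 24 h level for 2 rises and 3 falls, and above the 0 h level for 6 falls. The call selects probes whose 0 h and 24 h levels lie apart, which favours a 6 h level between them. The share over all tested probes was not counted. The median 6 h level was 272 CPM for the rises and 278 CPM for the falls.

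**Figure D2:**
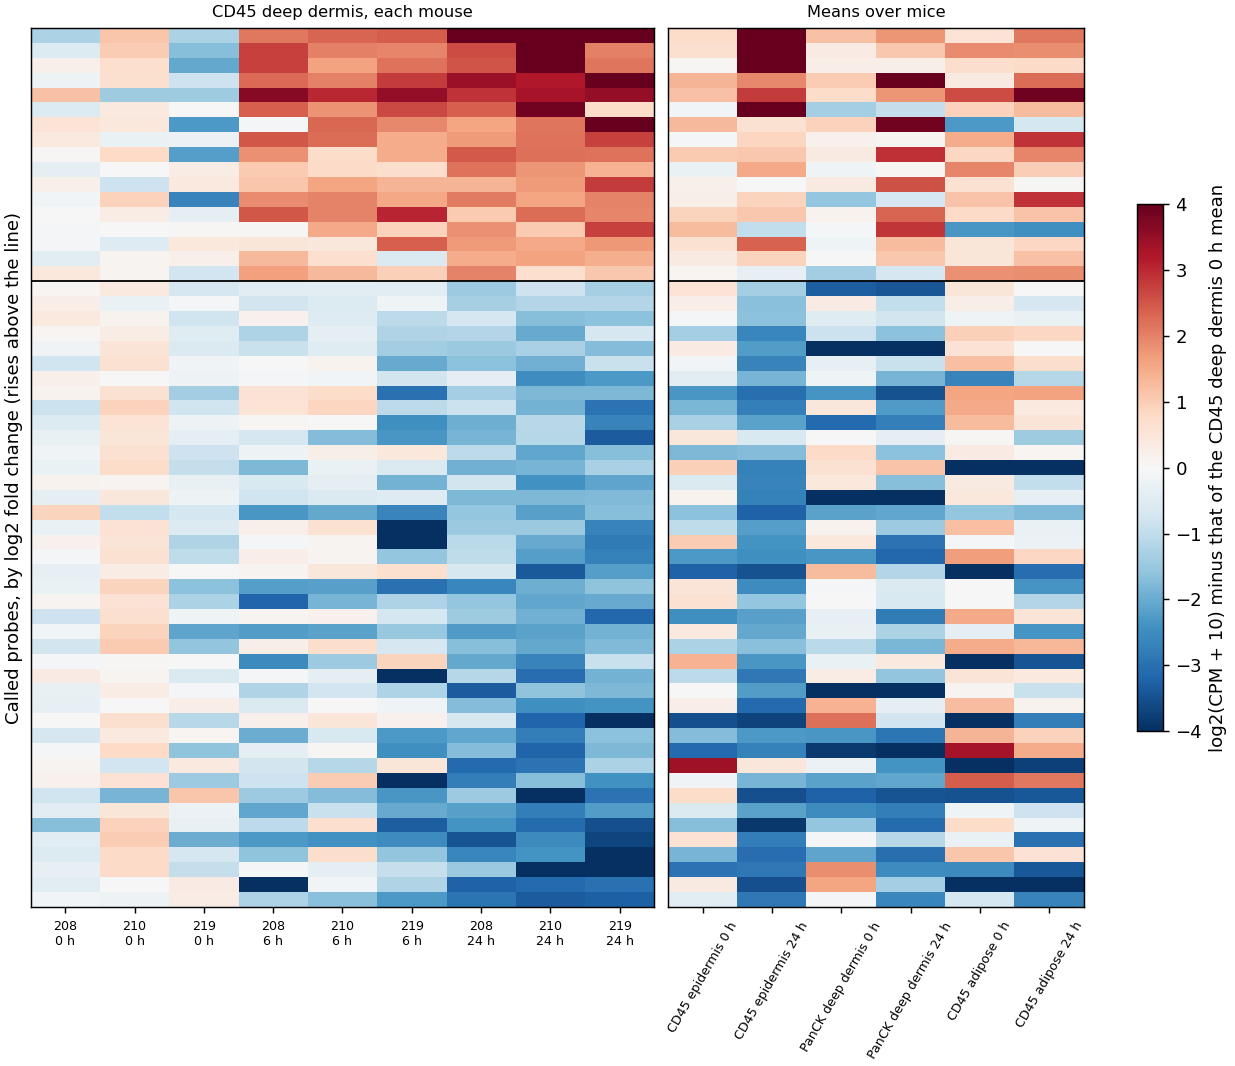
The 59 called probes (rows, ordered by fold change, rises above the line) in each mouse sum of CD45 deep dermis at 0, 6 and 24 h (left) and as means over mice in CD45 epidermis, PanCK deep dermis and CD45 adipose at 0 h and 24 h (right). Colour is log2(CPM + 10) minus the value of the CD45 deep dermis 0 h mean; all 17 rises are redder at 24 h in every mouse, and the right panel shows that the levels elsewhere differ from row to row.

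RTS0078277 was the rise with the smallest p. It measured 0, 41.8 and 0 CPM at 0 h in mice 208, 210 and 219, then 93.9, 109 and 117 CPM at 6 h and 737, 775 and 391 CPM at 24 h. Every mouse was higher at 24 h than any mouse at 0 h or 6 h. The 6 h values rest on 5, 15 and 2 counts, and the 6 h change was not called (edgeR adjusted p = 0.248). The probe was at 0 in 4 of 6 segments at 0 h and in none of 6 at 24 h, where segments ran from 183 to 1015 CPM. Its log2 fold change was 5.33 (SE 0.60, n = 3 mice, edgeR adjusted p = 0.000459). Since the 0 h sums hold 3 counts in all, against 159 at 24 h, the ratio of shares was 43.6 with an exact 95% interval of 14.6 to 214 that covers counting error only. In CD45 epidermis it measured 16.6, 36.7 and 35.3 CPM at 0 h and 798, 519 and 550 CPM at 24 h, a log2 fold change of 4.88 (SE 0.39, edgeR adjusted p = 6.19e-08). The change in epidermis minus that in deep dermis was -0.06 on the log2 scale (SE 0.57, edgeR adjusted p = 0.965). Its mean in PanCK deep dermis went from 44.5 ± 17.8 to 71.2 ± 22.1 CPM (SD, n = 3), too few counts for a test there.

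RTS0063811, the other rise named by rule, measured 49.5, 97.5 and 28.4 CPM at 0 h and 737, 620 and 1711 CPM at 24 h in mice 208, 210 and 219. The times did not overlap, and mouse 219 was the lowest at 0 h and the highest at 24 h. The log2 fold change was 3.68 (SE 0.41, edgeR adjusted p = 0.000459). The probe was not called at 6 h (edgeR adjusted p = 0.0695). It also rose in the PanCK areas of the same regions, from 105, 130 and 150 CPM to 1378, 1435 and 1808 CPM (log2 fold change 3.38, SE 0.30, edgeR adjusted p = 2.48e-06). In CD45 epidermis it measured 199, 138 and 165 CPM at 0 h, 246, 699 and 372 CPM at 6 h and 283, 213 and 244 CPM at 24 h. The 24 h log2 fold change there was 1.12 (SE 0.36, edgeR adjusted p = 0.0134). CPM use the plain total and the fold change uses the scaling of the fit. The ratio of shares in CD45 epidermis was 1.41, lower than that fold change. The probe was named for its small dermal p, which favours a larger change in deep dermis than in epidermis. The epidermal change was smaller than the dermal one by a log2 difference of -2.43 (SE 0.62, edgeR adjusted p = 0.013). Without mouse 219 this difference was -2.14 with an adjusted p of 0.17.

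RTS0068401 was the fall with the smallest p. It measured 755, 2131 and 256 CPM at 0 h in mice 208, 210 and 219, 207, 189 and 176 CPM at 6 h, and 85.7, 170 and 73.3 CPM at 24 h. The mice differed more widely at 0 h than at 24 h, and every 24 h value lay below every 0 h value. Its log2 fold change at 24 h was -3.06 (SE 0.43, edgeR adjusted p = 0.00259) and at 6 h against the same 0 h sums -2.79 (SE 0.44, edgeR adjusted p = 0.0201). It was the only named probe whose 6 h change in CD45 deep dermis was called. CD45 epidermis went from 2099, 1767 and 835 CPM to 142, 111 and 183 CPM (log2 fold change -2.91, SE 0.39, edgeR adjusted p = 1.14e-05). PanCK deep dermis went from 1071, 1470 and 484 CPM to 323, 568 and 559 CPM (log2 fold change -1.22, SE 0.33, edgeR adjusted p = 0.0134). There mouse 219 was not lower at 24 h.

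RTS0068986, the other fall named by rule, measured 297, 279 and 398 CPM at 0 h, 131, 94.4 and 58.6 CPM at 6 h and 34.3, 23.2 and 24.4 CPM at 24 h. The 3 times did not overlap, and the 24 h mean of 27.3 CPM was at the level of a floor probe. The 6 h values rest on 7, 13 and 1 counts and the 24 h values on 2, 3 and 1. The separation of 6 h from 24 h thus rests on few counts. The 6 h change was not called (edgeR adjusted p = 0.061). The log2 fold change at 24 h was -3.49 (SE 0.50, edgeR adjusted p = 0.00259) on 58 counts at 0 h and 6 at 24 h. It also fell in CD45 epidermis (-2.03, SE 0.46, edgeR adjusted p = 0.00117) and in PanCK deep dermis (-2.99, SE 0.36, edgeR adjusted p = 3.52e-05). The difference between the CD45 compartments was 1.84 (SE 0.78, edgeR adjusted p = 0.131). In PanCK epidermis the probe measured 39.4 ± 7.80 CPM at 0 h, 55.8 ± 46.2 CPM at 6 h and 33.5 ± 2.96 CPM at 24 h (SD, n = 3), where a floor probe had 16.8 CPM at 0 h and 33.5 CPM at 24 h.

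**Figure D3:**
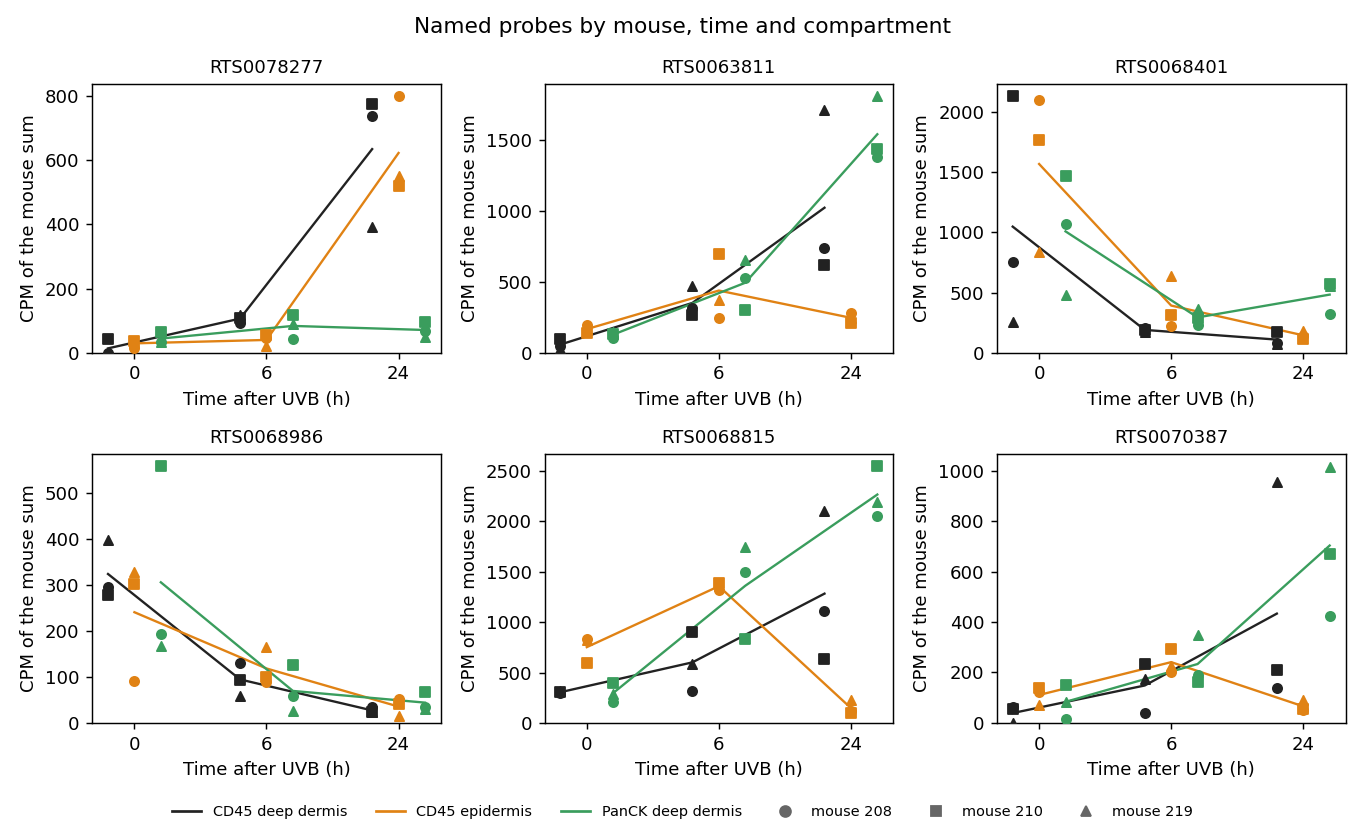
CPM of each mouse sum (symbols) and the mean of the 3 mice (lines) at 0, 6 and 24 h in CD45 deep dermis (black), CD45 epidermis (orange) and PanCK deep dermis (green) for 6 probes; times are evenly spaced, not to scale. RTS0078277 rises in both CD45 compartments and has a mean of 71.2 CPM in PanCK deep dermis at 24 h, while RTS0068815 rises in both deep dermal compartments and is lower in CD45 epidermis at 24 h.

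Many of the dermal calls changed in the same direction in CD45 epidermis. Of the 17 rises, 14 were tested there and 10 were called higher. Of the 42 falls, 25 were tested there and 22 were called lower. These shared calls were 58.8% of the dermal rises and 52.4% of the dermal falls, but 4.39% of the 228 epidermal rises and 9.02% of the 244 epidermal falls. In the epidermis 25.1% of 907 tested probes were called higher and 26.9% lower. Among the 509 probes tested in both compartments the shares were 18.7% and 33.8%. The median epidermal log2 fold change was 1.58 for the tested rises and -2.03 for the tested falls, against -0.40 over the 509. A probe can pass the count filter through the time at which it is high, so these counts describe the probes tested and not all 59.

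**Figure D4:**
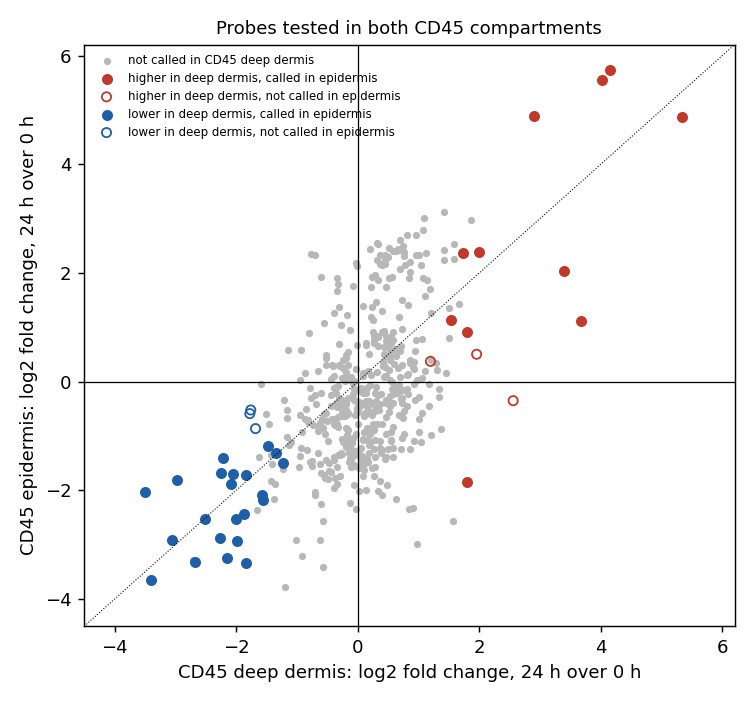
Log2 fold change, 24 h over 0 h, in CD45 epidermis (vertical) against CD45 deep dermis (horizontal) for the 509 probes tested in both; the dotted line marks equal change. Blue points are dermal falls, 22 of 25 called in epidermis (filled), and red points are dermal rises, 10 of 14 called higher in epidermis and 1, RTS0068815, called lower.

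The dermal calls were also set beside the PanCK areas of the same regions. There 8 of the 9 tested rises were called higher and 19 of the 27 tested falls were called lower. In PanCK deep dermis 7.96% of 1898 tested probes were called higher and 14.6% lower, and among the 526 probes tested in both kinds of area 10.6% and 12.9%. The median PanCK log2 fold change was 2.06 for the tested rises and -1.98 for the tested falls, against 0.04 over all probes tested there.

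The rises differed in where else they were found. For 6 of them, RTS0078277 included, the probe was called higher in CD45 epidermis and was too scarce in PanCK deep dermis for a test. Their median level went from 26.8 to 497 CPM in CD45 deep dermis and from 45.6 to 843 CPM in CD45 epidermis. In PanCK deep dermis it went from 38.4 to 65.1 CPM (24 h range 38.6 to 79.2 CPM). A floor probe had 22.4 CPM there at 24 h. In PanCK epidermis the median went from 25.7 to 78.6 CPM, with a floor probe at 16.8 and 33.5 CPM. In CD45 adipose it went from 132 to 127 CPM. No fit was run in PanCK epidermis or CD45 adipose. The 8 rises called in PanCK deep dermis went from a median of 105 to 462 CPM in CD45 deep dermis and from 127 to 636 CPM in PanCK deep dermis. Of these 8, 7 were tested in CD45 epidermis and 4 were called higher there too. Their medians in CD45 epidermis were 166 and 197 CPM at the same times. In PanCK epidermis they were 318 and 218 CPM, and in CD45 adipose 114 and 179 CPM. Another 3 rises were called in neither CD45 epidermis nor PanCK deep dermis. The sets of 6 and 8 were formed from the calls themselves and describe them.

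Most falls, like most tested probes, were more abundant in another compartment at 0 h: the highest mean was in CD45 deep dermis for 5 of the 42 and for 8.17% of all tested. It was in CD45 adipose for 18 of 42 (36.9% of all tested probes), in PanCK epidermis for 8 (32.4%) and in PanCK deep dermis for 7 (15.5%). The 18 adipose-high falls had a median of 932 CPM in adipose and 367 CPM in CD45 deep dermis at 0 h. At 24 h their medians were 607 and 89.3 CPM. The 7 falls highest in PanCK deep dermis had a median of 1669 CPM there and 489 CPM in CD45 deep dermis at 0 h, and 211 and 138 CPM at 24 h. Both sets were chosen by their 0 h level, which favours a lower 24 h value in the compartment that chose them, so their levels are a description. How much hair follicle or adipose tissue each CD45 segment held was not measured, and its part in these falls was not tested.

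The 24 h change itself differed between CD45 epidermis and CD45 deep dermis for 13 of the 59 probes in a joint fit of both compartments (edgeR, adjusted p under 0.05). Over all 1287 probes of that fit 11.2% were called, 7.69% with the higher change in epidermis and 3.5% with the lower. The 59 were selected by their dermal change, which is part of this difference, so a larger share among them is partly built in. For 10 of the 13, 9 of them falls, the change in epidermis lay above that in deep dermis. The remaining one was a rise, from a mean of 114 to 876 CPM in CD45 deep dermis and from 105 to 2065 CPM in CD45 epidermis. Its log2 difference was 2.41 (edgeR adjusted p = 0.0118). The 9 falls went from a median of 367 to 77.2 CPM in deep dermis. In epidermis they were scarce at both times, with a median of 49.7 CPM at 0 h (33.6 to 101 CPM) and 53.3 CPM at 24 h, and none was tested in the epidermal fit, so that they could enter the joint fit through their dermal 0 h level. A floor probe there had 20.5 CPM at 0 h and 35.0 CPM at 24 h. For the 25 falls that were tested in epidermis, the differences ran from -1.38 to 1.84 with edgeR adjusted p from 0.0542 to 0.969.

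The other 3 probes with a different change were rises whose epidermal change lay below the dermal one: RTS0063811, RTS0068815 and RTS0070387. The last 2 were singled out after their values were seen. RTS0068815 measured 297, 306 and 313 CPM at 0 h in CD45 deep dermis and 1114, 635 and 2103 CPM at 24 h in mice 208, 210 and 219. All mice were higher at 24 h (log2 fold change 1.79, SE 0.44, edgeR adjusted p = 0.0277). The probe was not called at 6 h in CD45 deep dermis (edgeR adjusted p = 0.618). In CD45 epidermis it measured 838, 597 and 824 CPM at 0 h, 1320, 1388 and 1364 CPM at 6 h and 116, 99.5 and 229 CPM at 24 h. It was thus above its starting level at 6 h and below it at 24 h in every mouse (24 h log2 fold change -1.85, SE 0.31, edgeR adjusted p = 0.000107). The difference between the compartments was -3.44 (SE 0.43, edgeR adjusted p = 4.21e-05). PanCK areas showed the same contrast in their means, which went from 297 to 2267 CPM in deep dermis and from 2112 to 650 CPM in epidermis.

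RTS0070387 measured 61.9, 55.7 and 0 CPM at 0 h in CD45 deep dermis and 137, 209 and 953 CPM at 24 h. Mouse 219 was far above the other 2 mice at 24 h. The log2 fold change was 2.56 (SE 0.73, edgeR adjusted p = 0.0476), and without mouse 219 it was 1.51 with an adjusted p of 0.285. The probe was not called at 6 h in CD45 deep dermis (edgeR adjusted p = 0.549). In PanCK deep dermis it went from 17.6, 150 and 83.4 CPM to 425, 668 and 1016 CPM (log2 fold change 2.75, SE 0.40, edgeR adjusted p = 0.00013). In CD45 epidermis it measured 124, 138 and 70.6 CPM at 0 h, 201, 294 and 227 CPM at 6 h and 51.5, 54.5 and 91.6 CPM at 24 h. The 6 h change there was not tested. The 24 h change there did not pass the test (log2 fold change -0.35, SE 0.40, edgeR adjusted p = 0.483). The difference between the CD45 compartments was -2.89 (SE 0.73, edgeR adjusted p = 0.0123). It was not called without mouse 210 (-2.84, edgeR adjusted p = 0.119), without mouse 219 (-2.43, edgeR adjusted p = 0.179) or with limma (-4.99, adjusted p = 0.0941).

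The number of dermal calls depended on the mice and on the test. Without mouse 210, the deepest at 24 h, 12 probes were called, 10 of them among the 59, and without mouse 208 there were 28, 25 of them among the 59. With limma on the mean log2(CPM + 1) of the segments 7 were called, all among the 59, and 63 had an unadjusted p under 0.05. Scaling to the floor probes moved the median log2 fold change of CD45 epidermis from -0.21 to -1.57 and that of CD45 deep dermis from 0.09 to 0.17. With that scaling 48 dermal probes were called, 14 higher and 34 lower, of which 6 rises and 21 falls were shared with epidermis. Floor probes were chosen by a low 0 h level in CD45 epidermis and the other compartments but not in CD45 deep dermis, so a rise of the floor by 24 h is partly built into the former and not into the latter. The split of the difference between compartments turned from 10 higher and 3 lower in epidermis to 2 higher and 18 lower. The level of a floor probe went from 20.5 to 35.0 CPM in CD45 epidermis, from 16.8 to 33.5 CPM in PanCK epidermis, from 16.6 to 25.6 CPM in CD45 adipose and from 18.7 to 22.4 CPM in PanCK deep dermis, the 4 compartments used in the choice. How much of this comes from the choice was not tested, and the floor-scaled values of the epidermis carry that limit.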

How the data were processed

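Per the file headers, the deposited whole counts of each probe in each segment were written by version 2.3.3.10 of the GeoMx NGS Pipeline. No normalization is recorded, and the sources used here give neither aligner nor genome build. Some deposited count columns were recorded under the unit other, since the files have no column header for them, and hold the same whole counts. Segments that share mouse, compartment and time were added into 1 sum. Each compartment was fitted over 0, 6 and 24 h (9 sums) in edgeR 4.0.16 (R 4.3.3) with TMM scaling, filterByExpr at a minimum count of 10, the mouse as a block and the quasi-likelihood F test. Adjusted p-values are Benjamini-Hochberg over all probes of a fit, and probes under 0.05 are called. Standard errors derive from the fold change and F statistic. The difference between CD45 compartments is a compartment-by-24 h coefficient with the biopsy as a block. Both fits were also run on simulated counts with known changes, a fixed spread and no mouse effect, a simpler setting than these data. Floor probes are the 5000 with the lowest mean share of counts at 0 h in the other 4 compartments. CPM are counts divided by the total of the sum they belong to and scaled to a common total. Fold changes use TMM scaling and CPM do not, so the 2 can differ. In CD45 epidermis the fold changes of all named probes lay above the ratios of their shares. Epidermal calls and differences between compartments therefore depend on the scaling. Exact intervals come from scipy 1.17.1.

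The pairing comes from the mouse numbers in the labels. Deviations from the group means at 0 h and 24 h correlated across tested probes with r = 0.0665, 0.0938 and 0.186 within mice 208, 210 and 219. Between different mice r ran from -0.154 to 0.109, so the correlations alone do not show a pairing. Swapping times within 3 mice allows an exact two-sided p of 0.25 at the lowest, so single values were not tested. Nothing says more about the separateness of the samples than the mouse numbers. The comparison, members and alternatives were chosen with earlier results of these data known. Named probes are the 2 rises and 2 falls with the smallest p among calls that moved the same way in 3 mice. Alternatives were DESeq2 1.42.0 size factors and test, upper quartile and floor scaling, no filter, a minimum count of 20, limma 3.58.1, omission of segments under 12000 counts, of the block, of 6 h and of each mouse.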

Additional observations from a re-analysis of the deposited data

Results flagged for a closer look

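The 24 h change differed between CD45 epidermis and CD45 deep dermis for 13 of the 59 dermal calls, by edgeR's test of the difference itself, against 11.2% of all 1287 probes in that fit. The 59 were selected by their dermal change, which is part of this difference, so a larger share among them is partly built in. Of the 13, 9 were falls too scarce in CD45 epidermis for a test there. These falls could enter the joint fit through their dermal 0 h level. Scaling to floor probes, which were chosen partly by a low 0 h level in the epidermis, turned the split from 10 higher and 3 lower in epidermis to 2 higher and 18 lower. Among the named probes the difference, epidermis minus deep dermis on the log2 scale, was -2.43 for RTS0063811, -3.44 for RTS0068815 and -2.89 for RTS0070387. The difference of RTS0063811 was not called without mouse 219 (edgeR adjusted p = 0.17), and that of RTS0070387 was not called in 3 of 12 alternatives (without mouse 210, without mouse 219 and with limma, adjusted p = 0.119, 0.179 and 0.0941).

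Among the 6 segments of CD45 deep dermis at 24 h, 1 of mouse 219 stood apart for RTS0068815, at 2981 CPM with the next segment at 1245 CPM. It was the only such segment in 14 groups of segment values examined (totals and 6 probes at 2 times), where chance alone marks about 1 group in 20. Segments of 1 mouse are not independent. Without mouse 219 the dermal log2 fold change of RTS0068815 was 1.45 (edgeR adjusted p = 0.138). The call was also lost without mouse 208 (1.90, edgeR adjusted p = 0.086) and without mouse 210 (1.86, edgeR adjusted p = 0.0615).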

How the results depend on the processing

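Of 13 alternatives, 8 kept the count of dermal calls within 1.5 times the 59, at 40 to 61. Dermal calls, those shared with CD45 epidermis, those shared with PanCK deep dermis and those whose change differs between the CD45 compartments numbered 59, 32, 27 and 13. Without the filter they were 34, 14, 9 and 6, with a minimum count of 20 they were 30, 18, 15 and 8, and with limma 7, 6, 3 and 1. Scaling to floor probes gave 20 differences in place of 13. Without the replicate block they were 40, 25, 20 and 9. Leaving out each mouse in turn gave 12 to 41, 8 to 25, 6 to 17 and 1 to 10. The causes of these differing counts were not tested. No named probe reversed in any alternative in which it was tested. RTS0078277 (log2 fold change 4.69 to 7.79) and RTS0063811 (3.19 to 4.91) were called in all 13. RTS0068401 and RTS0068986 lost the call with limma (adjusted p = 0.0875 and 0.0944) and were not tested at a minimum count of 20. RTS0068815 lost its dermal call in 5 alternatives, namely no filter, limma and omission of each mouse (adjusted p 0.006 to 0.138 over all 13). Its difference between compartments was called in all 13. RTS0070387 lost its dermal call in 5 of 10. Depth limits the test to 624 probes: 12 of 17 rises rest on 20 counts or fewer at 0 h.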
